A study of Homo sapiens with 12 samples.

Results

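The insulin-like growth factor binding proteins IGFBP1 to IGFBP7 are the 7 genes described here, of 27788 gene symbols counted. They were taken by symbol, and the family was singled out because IGFBP1 had no counts in U-87 MG cells that lack GSTO1. The KO against wild-type values of the family in U-87 MG are therefore given as a description, without a test. The KO against wild-type comparison in HCT116 was not part of that choice and was tested.

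RNA was sequenced from HCT116, a colorectal carcinoma line, and U-87 MG, a glioblastoma line, with 3 libraries per group and 12 in all. The groups were GSTO1 KO HCT116, wild-type HCT116, GSTO1 KO U-87 MG and wild-type U-87 MG. GSTO1 encodes a cytosolic glutathione transferase of the omega class. Per the labels' protocols, the KO cells carried Cas9 from a lentivirus (driven by the EF1α promoter and kept by blasticidin selection), received a crRNA aimed at exon 2 of GSTO1 and were grown from individual colonies that had lost GSTO1. The sources used here do not state whether the wild-type libraries came from untreated cells or from Cas9 cells given the non-targeting crRNA, nor how many colonies each KO group represents. A difference between a colony and its parent line and an effect of losing GSTO1 cannot be told apart. Separate cultures are not named in the labels, so p-values speak only for the spread among the 3 libraries of a group, which may be technical.

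IGFBPs are secreted proteins that hold the growth factors IGF1 and IGF2 outside the cell. They keep the ligands away from the IGF1 receptor or carry them to it, and proteases that cut an IGFBP release its ligand. IGFBP1 is made mainly by liver and decidua and is repressed by insulin through FOXO transcription factors. IGFBP3 carries most IGF in blood, IGFBP6 prefers IGF2, and IGFBP7 binds IGFs only weakly and is found in the matrix around blood vessels.

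The 7 genes lie on 5 chromosomes (GENCODE release 44, GRCh38). IGFBP1 (ENSG00000146678.10, chr7:45888360-45893660, plus strand, 4 exons) and IGFBP3 (chr7:45912245-45921874, minus strand, 5 exons) end 18.6 kb apart and point towards each other. IGFBP2 (chr2:216632828-216664436, plus strand, 4 exons) and IGFBP5 (chr2:216672105-216695549, minus strand, 4 exons) form a second such pair, 7.67 kb apart. IGFBP4 is at chr17:40443450-40457725 (plus strand, 4 exons), IGFBP6 at chr12:53097436-53102345 (plus strand, 4 exons) and IGFBP7 at chr4:57030773-57110385 (minus strand, 5 exons). No stretch of 50 exon bases was shared between any pair of the 7 genes. Genes on the opposite strand covered 18.3% of the exon bases of IGFBP7 (POLR2B and IGFBP7-AS1) and 7.53% of those of IGFBP5 (DIRC3-AS1). How the counting treated strand is not stated in the sources used here, so reads of these partners cannot be told apart from those of the 2 genes.

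The RefSeq promoter table (GRCh38.p14) matched 5 of the 7 genes, IGFBP2 to IGFBP6. The 250 bases before the annotated start are shown for IGFBP2, the leading family member of HCT116, and for IGFBP3 and IGFBP4, which were higher and lower in KO U-87 MG cells. Capitals mark matches to GGGCGG, the GC box, on either strand (CCGCCC is its reverse complement) and to TATAAA, the TATA box.
IGFBP2 (chr2:216633170-216633419, plus strand): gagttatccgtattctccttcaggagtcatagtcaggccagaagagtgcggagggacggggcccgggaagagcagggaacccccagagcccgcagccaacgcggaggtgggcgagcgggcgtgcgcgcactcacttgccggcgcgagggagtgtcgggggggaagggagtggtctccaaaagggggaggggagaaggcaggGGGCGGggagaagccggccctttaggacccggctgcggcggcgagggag
IGFBP3 (chr7:45921273-45921522, minus strand): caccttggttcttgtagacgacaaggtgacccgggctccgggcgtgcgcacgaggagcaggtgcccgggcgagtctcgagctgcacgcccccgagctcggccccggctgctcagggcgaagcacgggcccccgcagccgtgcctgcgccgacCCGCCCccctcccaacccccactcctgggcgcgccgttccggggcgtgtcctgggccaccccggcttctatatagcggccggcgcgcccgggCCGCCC
IGFBP4 (chr17:40443200-40443449, plus strand): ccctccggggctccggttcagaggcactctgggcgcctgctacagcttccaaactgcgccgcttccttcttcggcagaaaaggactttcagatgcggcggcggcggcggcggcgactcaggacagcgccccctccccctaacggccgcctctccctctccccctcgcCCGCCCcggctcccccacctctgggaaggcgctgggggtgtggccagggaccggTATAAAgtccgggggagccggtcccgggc

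The IGFBP2 stretch held a GC box 49 bases before the start, the IGFBP3 stretch held 2 on the opposite strand, and the IGFBP4 stretch held a TATA box 29 bases before the start and a GC box on the opposite strand. Of 35116 promoters of 300 bases in the table, 45.0% held a GC box and 7.33% held TATAAA on the gene's strand. The IGFBP6 window, not shown because a further annotated transcript covers most of it, held GTAAACA, the FOXO core, 186 bases before the start and a GC box 17 bases before it. GTAAACA on either strand was present in 3.42% of all promoters. The IGFBP5 window held TTTAAA on the gene's strand, 29 bases before the start, as did 12.2% of all promoters somewhere in the window. CACGTG (7.26% of all promoters), TGANTCA (7.71%), TGACNNNGC (13.3%) and a pair of GAAA set 2 bases apart (3.57%), each sought on both strands, matched none of the 5 family members. These matches describe letters in the windows, not binding.

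Total counts per library ranged between 17814142 and 28097179. GSTO1 gave 16.1, 13.8 and 14.7 CPM (counts scaled to library sizes adjusted by TMM over the 12 libraries) in KO HCT116, against 60.7, 61.4 and 58.2 CPM in wild-type HCT116. It gave 26.6, 25.1 and 26.7 CPM in KO U-87 MG, against 151, 150.5 and 123 CPM in wild-type U-87 MG, so the labels held in both lines. Within groups, pairs of libraries differed by 1.49 to 9.77 times sampling noise (chi-square per degree of freedom). Replicate 3 of wild-type U-87 MG stood apart (8.62 and 9.77, against 2.42 for the other pair), and replicate 3 of both HCT116 groups did so less (3.58 to 5.82). Colorectal epithelial markers summed to 1898 to 2096 FPKM (fragments scaled by transcript length and depth) in KO HCT116 and to 2081 to 2204 FPKM in wild-type HCT116, with VIL1, CDX1 and LGALS4 at or near 0. KRT8, at 855 FPKM in KO and 976 FPKM in wild-type HCT116, carried most of this sum with KRT18 and KRT19, while CDH1 (16.1 FPKM in KO, 9.17 FPKM in wild type), CLDN4 (46.1 FPKM in KO, 24.8 FPKM in wild type) and ELF3 (22.9 FPKM in KO, 11.5 FPKM in wild type) were higher in KO. In U-87 MG, the glial markers GFAP, S100B and SOX2 were under 0.1 FPKM in both groups and OLIG2 was at 0.147 FPKM in KO and 0.286 FPKM in wild-type cells, while the mesenchymal VIM was at 3116 FPKM in KO and 3980 FPKM in wild-type cells. U-87 MG markers as a list summed to 6638 to 6715 FPKM in KO cells and 7206 to 8007 FPKM in wild-type cells, with 8 of 12 above 0.5 FPKM in each. The same list summed to 184 to 187 FPKM in KO HCT116 and 113 to 116 FPKM in wild-type HCT116, mostly CD44 (169.5 FPKM in KO, 99.8 FPKM in wild type).

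Above 0.5 FPKM, the 2 lines shared only IGFBP6 and otherwise expressed different family members. Levels between genes are compared here in the authors' FPKM, which are scaled by gene length. In HCT116, only IGFBP2 and IGFBP6 were above 0.5 FPKM. IGFBP2 made up 77.2% of the summed IGFBP FPKM in KO cells and 70.6% in wild-type cells, and IGFBP6 made up 22.7% in KO cells and 29.2% in wild-type cells. In U-87 MG, IGFBP6 led with 66.8% in KO cells and 49.6% in wild-type cells, followed by IGFBP7 with 24.3% in KO cells and 38.8% in wild-type cells. The libraries of KO and wild type did not overlap in any of these 4 shares. For levels in CPM, a different measure, 61.6% of all genes tested in HCT116 and 63.8% in U-87 MG did not overlap. No such rate was computed for shares. Shares of 1 sum are not independent. In HCT116, IGFBP2 and IGFBP6 made up nearly all of it, and the FPKM of IGFBP2 itself overlapped between KO and wild type. The summed FPKM of the 7 genes was 120 ± 10.4 in KO and 122 ± 7.77 in wild-type HCT116, and 655 ± 28.2 in KO and 500.2 ± 49.8 in wild-type U-87 MG (SD, n = 3 each). The lines were sequenced with different layouts, so their levels are set side by side without a test.

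**Figure D1:**
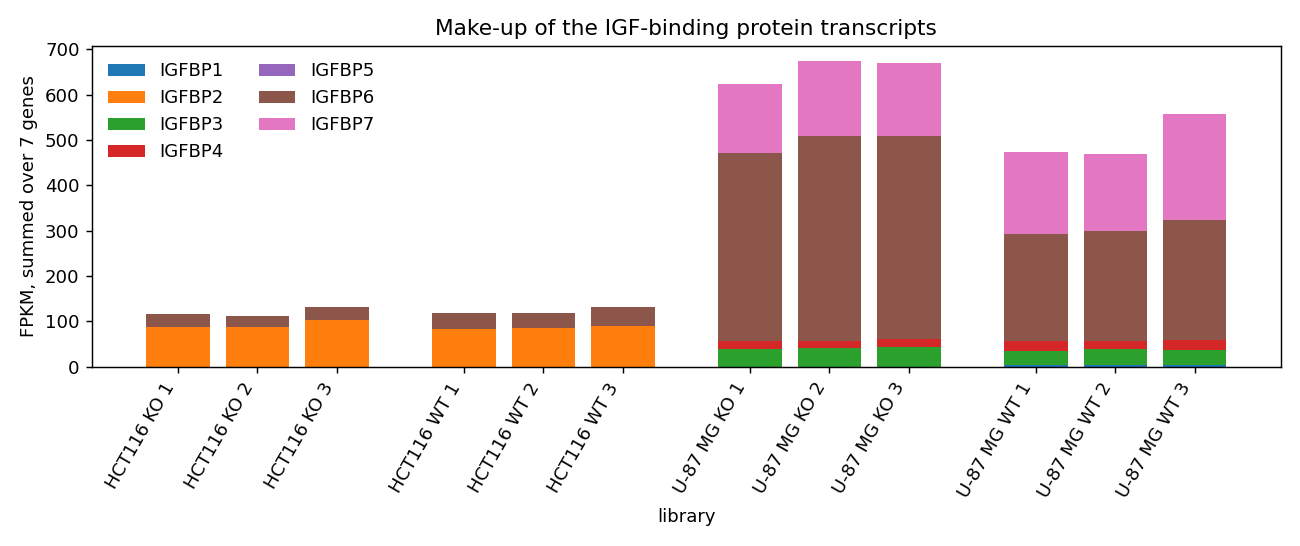
Stacked bars give the FPKM of each IGFBP in each of the 12 libraries, KO left of wild type within each line. IGFBP2 and IGFBP6 fill the HCT116 bars, and IGFBP6, IGFBP7 and IGFBP3 fill most of the U-87 MG bars, which sum to 623 to 673 FPKM in KO and 470 to 558 FPKM in wild-type cells.

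By mean FPKM, the order in KO U-87 MG was IGFBP6, IGFBP7, IGFBP3, IGFBP4, IGFBP5 and IGFBP2, with IGFBP1 listed at 0. Wild-type U-87 MG had the same order with IGFBP1 between IGFBP4 and IGFBP5. No neighbours in these orders overlapped between libraries, except that IGFBP2 was at 0 in 1 KO library, level with IGFBP1, and the closest of the others were IGFBP6 (235 to 265 FPKM) and IGFBP7 (170.5 to 234 FPKM) in wild-type cells. IGFBP6 ranked 153rd among 16760 genes above 0 FPKM in KO U-87 MG and 268th among 16529 in wild-type U-87 MG. IGFBP2 ranked 680th among 17023 genes in KO HCT116 and 827th among 16906 in wild-type HCT116. IGFBP3, IGFBP4, IGFBP5 and IGFBP7 had 0 to 17 counts in every HCT116 library, IGFBP2 had 0 to 3 in every U-87 MG library, and IGFBP1 had none in any HCT116 library.

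**Figure D2:**
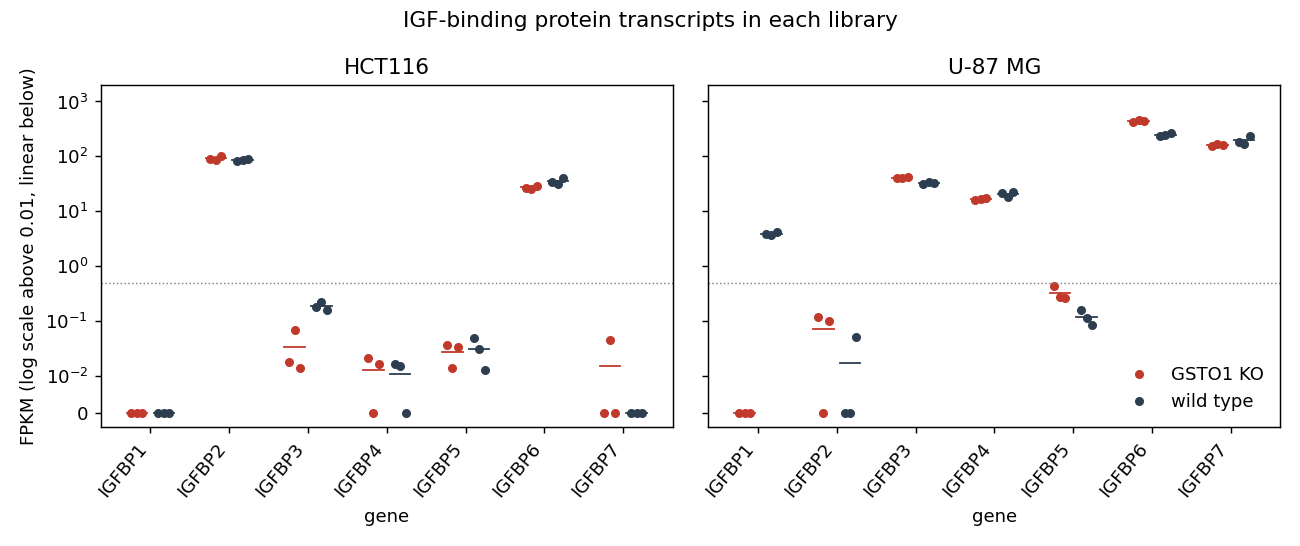
Points are FPKM of each IGFBP in each library, on a scale that is logarithmic above 0.01 and linear below, with HCT116 and U-87 MG in separate panels and KO left of wild type. Short lines are group means and the dotted line marks 0.5 FPKM. IGFBP1 is at 0 in every library but those of wild-type U-87 MG, where it lies between 3.65 and 4.25 FPKM.

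IGFBP1, the insulin-repressed member, was detected only in wild-type U-87 MG among the 4 groups. It had 0, 0 and 0 counts in the KO U-87 MG libraries, against 149, 175 and 151 counts in the wild-type ones. These correspond to 0, 0 and 0 FPKM in KO cells and 3.90, 3.65 and 4.25 FPKM in wild-type cells. The groups did not overlap. Over the group, 0 of 69493152 counts allow up to 3 counts, or 0.0432 CPM on unadjusted library totals, which on the same scale makes IGFBP1 at least 152-fold lower in KO than in wild-type U-87 MG. This limit covers counting error in the KO libraries only and takes the 475 wild-type counts as exact. RNA came from bulk cultures, so fewer cells expressing a gene and less RNA per cell cannot be told apart. On unadjusted totals, the same limit in HCT116 was 0.0496 CPM in KO cells and 0.0417 CPM in wild-type cells, and a change of IGFBP1 there was not detectable at this depth.

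IGFBP6, the IGF2-preferring member, was the highest IGFBP of U-87 MG and was higher in KO cells. Its FPKM was 414, 450.2 and 449 in KO U-87 MG, against 235, 242 and 265 in wild-type U-87 MG. Every KO library was above every wild-type library. The log2 fold change of counts was 0.79 (SE 0.05), or 1.72-fold. Without replicate 3 of wild-type U-87 MG it was 0.83.

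IGFBP7, the matrix-associated member, was lower in KO U-87 MG. Its FPKM was 152, 166 and 160.2 in KO cells, against 181, 170.5 and 234 in wild-type cells. The groups did not overlap, but the lowest wild-type library lay close to the highest KO library. Replicate 3 was the highest wild-type library: the log2 fold change was -0.35 (SE 0.09) with it and -0.23 (SE 0.04) without it.

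IGFBP3, the main carrier in blood, and IGFBP4, a member cut by the protease PAPPA, differed from wild type in opposite directions. IGFBP3 had 39.9, 40.6 and 42.6 FPKM in KO U-87 MG, against 31.6, 34.8 and 32.6 FPKM in wild-type U-87 MG, a log2 fold change of 0.29 (SE 0.05). IGFBP4 had 15.9, 16.5 and 17.7 FPKM in KO cells, against 21.4, 18.4 and 22.3 FPKM in wild-type cells, a log2 fold change of -0.33 (SE 0.07). Neither pair of groups overlapped, and both differences were under 1.5-fold. Without replicate 3 of wild-type U-87 MG the log2 fold changes were 0.27 for IGFBP3 and -0.28 for IGFBP4.

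IGFBP5, a member known for binding extracellular matrix, was scarce in U-87 MG. It had 89, 41 and 45 counts in KO libraries and 26, 23 and 13 counts in wild-type libraries. The KO libraries were all higher, and their mean level was 0.321 ± 0.0965 FPKM, against 0.121 ± 0.0370 FPKM in wild-type cells (SD, n = 3 each). The log2 fold change was 1.49 (SE 0.28), and 1.21 without replicate 1 of KO, the highest library. IGFBP2 had 3, 0 and 2 counts in KO U-87 MG and 0, 0 and 1 in wild-type U-87 MG, too few to compare.

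A gene was called changed when it passed the study's 3 thresholds: adjusted p below 0.05, more than 1.5-fold, and more than 0.5 FPKM on average across a line's 6 libraries. Of the 6 family members that passed the filter on low counts in U-87 MG, IGFBP6 lay past these thresholds on the higher side and IGFBP1, which passed the filter only through the wild-type libraries, on the lower side, while 16.2% of the 13741 genes tested met them, 8.06% as higher and 8.15% as lower. IGFBP5 exceeded the fold but not the FPKM minimum. All 6 had libraries that did not overlap between KO and wild type, 3 above and 3 below, as did 63.8% of all genes tested, 32.0% above and 31.8% below. The family was chosen on this contrast, so these counts are a description only, not a test. Markers differed between the same groups: fibroblast markers summed to 293 to 302 FPKM in KO U-87 MG and 469 to 488 FPKM in wild-type U-87 MG, with COL1A1 at 261 FPKM in KO and 461 FPKM in wild-type cells. Other fibroblast markers were higher in KO: LUM was at 24.4 FPKM in KO and 3.84 FPKM in wild type, PDGFRA at 4.28 FPKM in KO and 2.83 FPKM in wild type, and COL3A1 at 1.76 FPKM in KO and 0.173 FPKM in wild type. PDGFRB was at 5.12 FPKM in KO and 8.22 FPKM in wild type. Hepatocyte markers, a cell type that makes IGFBP1, summed to 5.02 to 5.75 FPKM in KO and 10.1 to 12.3 FPKM in wild-type U-87 MG. All but SERPINA1 of the 5 hepatocyte markers were under 0.5 FPKM. The leukocyte markers, of which PTPRC was at 0.0563 FPKM in KO and 0.0433 FPKM in wild-type cells, summed to 373 to 390 FPKM in KO and 285 to 325 FPKM in wild-type U-87 MG. CD68 (304.5 FPKM in KO, 193 FPKM in wild type) and HLA-DRA (76.4 FPKM in KO, 105 FPKM in wild type) made up nearly all of that sum. Endothelial markers summed to 0.564 to 0.966 FPKM in KO and 1.75 to 2.32 FPKM in wild-type U-87 MG. The part of these shifts in the IGFBP values was not tested.

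In HCT116, no IGFBP met the thresholds, while 11.9% of the 14068 genes tested did, 7.82% as higher and 4.07% as lower. Only 3 of the 7 members passed the filter on low counts, and all 3 had an adjusted p under 0.05 by edgeR's quasi-likelihood test, as did 57.3% of all genes tested. Of these members, 1 was higher and 2 were lower in KO, beside 29.2% and 28.1% of all genes. IGFBP3, 1 of the 2 lower, passed the filter only through the wild-type libraries, so its p-value is a description. DESeq2 also called none, and 3 had an unadjusted p under 0.05. Of all genes tested, 1100 were called higher and 572 lower in KO HCT116, while limma on log2(FPKM + 1) called 568 higher and 502 lower.

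IGFBP6 was lower in KO HCT116, by less than 1.5-fold. Its FPKM was 27.0, 25.3 and 29.2 in KO cells, against 34.7, 31.9 and 40.5 in wild-type cells. The groups did not overlap, as for 61.6% of all genes tested, 31.4% in this direction. The log2 fold change was -0.35 (SE 0.08), a fold of 1.27, with an edgeR adjusted p of 0.00117. Without replicate 3 of wild-type HCT116 it was -0.25, with an edgeR adjusted p of 0.00859, and without replicate 3 of KO it was -0.40, with 4.81e-05.

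IGFBP2, a member best known from fetal tissue and tumours, was the most abundant IGFBP of HCT116. It had 88.6, 86.8 and 102 FPKM in KO HCT116, against 82.7, 85.3 and 90.3 FPKM in wild-type HCT116. The groups overlapped, and only replicate 3 of KO exceeded all wild-type libraries. The log2 fold change was 0.17 (SE 0.06), with an edgeR adjusted p of 0.0264. It was 0.08 without replicate 3 of KO, with an edgeR adjusted p of 0.147. Leaving out replicate 1 or 2 of wild type gave edgeR adjusted p-values of 0.149 and 0.0866. DESeq2 gave 0.0551 and limma on log2(FPKM + 1) gave 0.221. Other settings gave smaller values: by edgeR, adjusted p was 0.00422 without replicate 3 of wild type and 0.00573 without the low-count filter. With the replicate number as a block it was 2.12e-06.

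IGFBP3 was nearly silent in HCT116. It had 1, 4 and 1 counts in KO libraries and 13, 17 and 10 counts in wild-type libraries. The groups did not overlap, and the log2 fold change was -2.43 (SE 0.57), with an edgeR adjusted p of 0.00124. IGFBP3 passed the filter on low counts only through the wild-type libraries. The test could hardly have shown the other direction, so its p-value is given as a description. Its mean over the 6 libraries was 0.110 FPKM, under the minimum of 0.5, so it was not called. The value rests on few reads: without replicate 2 of KO it was -3.40, and on log2(FPKM + 1) it was -0.20.

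The remaining members were near the limit of detection in HCT116. IGFBP5 had 5, 2 and 5 counts in KO libraries and 9, 6 and 2 in wild-type libraries. IGFBP4 had 1, 0 and 1 counts in KO libraries and 1, 1 and 0 in wild-type libraries, and IGFBP7 had a single count, in KO replicate 2. No difference was detectable for these genes at this depth.

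**Figure D3:**
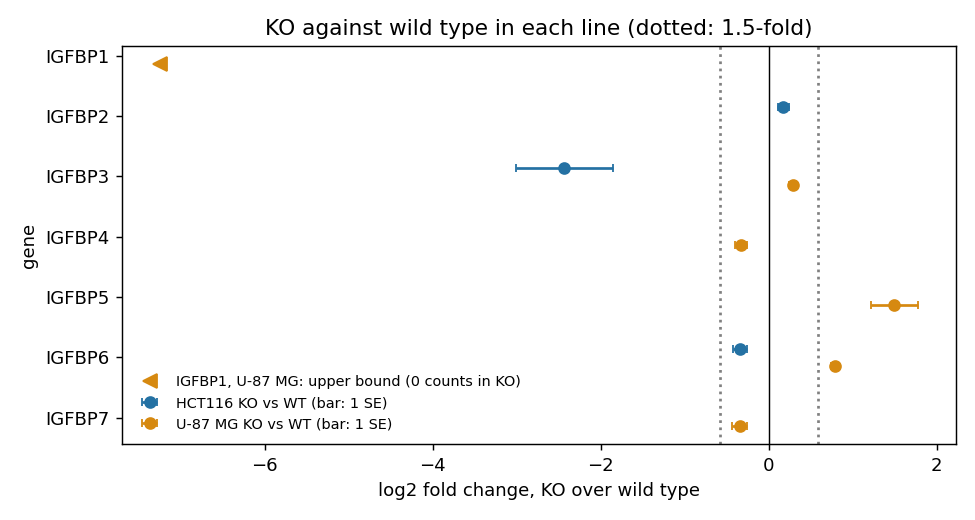
Points are log2 fold changes of counts, KO over wild type, with bars of 1 SE, for the IGFBPs that passed the low-count filter in each line, and dotted lines mark 1.5-fold. The triangle for IGFBP1 in U-87 MG is the upper bound that 0 counts allow. IGFBP3 and IGFBP6 lie on opposite sides of 0 in the 2 lines.

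IGFBP3 and IGFBP6 were lower in KO HCT116 and higher in KO U-87 MG. For IGFBP6 the log2 fold changes were -0.35 in HCT116 and 0.79 in U-87 MG, and for IGFBP3 they were -2.43 and 0.29. In both genes, every KO library lay on 1 side of the wild-type libraries within each line, as for 61.6% of all genes in HCT116 and 63.8% in U-87 MG. Neither was called in HCT116, where IGFBP3 had 6 counts in KO and 40 in wild-type cells over the group, and IGFBP3 was under 1.5-fold in U-87 MG. The difference between the lines was not tested for family members, since the U-87 MG values were used to choose them.

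IGFBP1 was compared with the genes around it on chromosome 7. Within 2 Mb on either side, 44 other genes were counted, of which 22 exceeded 0.5 FPKM in a U-87 MG group. Of these, TMED4 was called higher and TNS3 lower in KO U-87 MG. TMED4, a cargo receptor of the secretory pathway, had 60.7 ± 1.95 FPKM in KO and 37.8 ± 1.11 FPKM in wild-type cells. TNS3, a focal adhesion protein, had 3.24 ± 0.116 FPKM in KO and 5.82 ± 0.209 FPKM in wild-type cells (SD, n = 3 each). The start site of IGFBP3, 33.5 kb away, was the nearest of the 22. The log2 fold changes of the 20 neighbours that could be fitted lay between -0.85 and 0.65, while IGFBP1 had no counts in KO cells. This window was added after the values were seen.

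**Figure D4:**
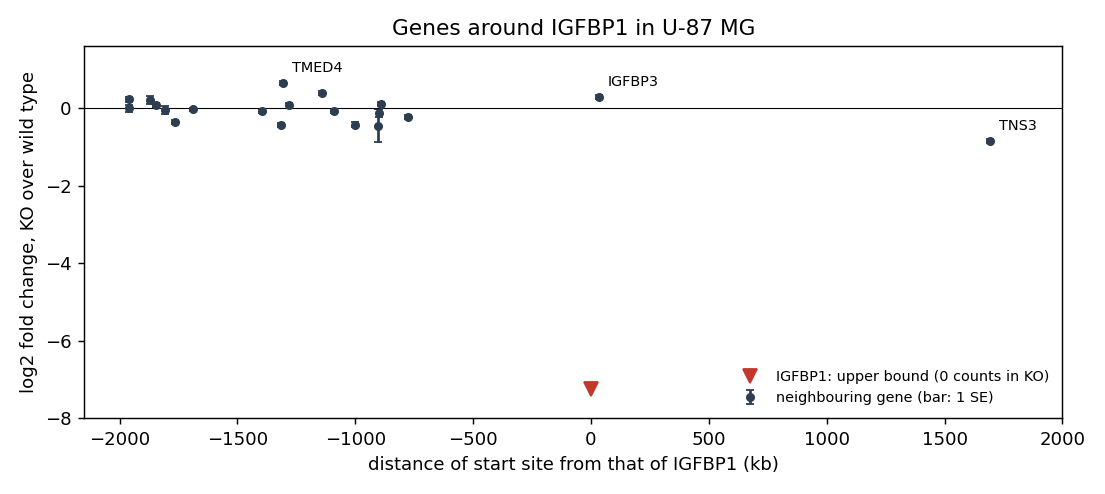
Each point is a gene above 0.5 FPKM in U-87 MG within 2 Mb of IGFBP1, at the distance of its start site in kb, with its log2 fold change, KO over wild type, and 1 SE. The triangle is the upper bound for IGFBP1. TMED4 at 0.65 and TNS3 at -0.85 are the outermost neighbours, and IGFBP3 lies at 0.29.

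Likeness of profile was measured as the root mean square difference in centred log2 CPM over the 12 libraries, among 13171 genes with at least 1 FPKM in a group. EXO5, which encodes a DNA exonuclease, was nearest to IGFBP1 at 0.375 log2 units. EXO5 had 0.00877 FPKM in KO U-87 MG and 2.11 FPKM in wild-type U-87 MG. KRBOX1 (1.07), PADI2, a peptidylarginine deiminase (1.11), CABYR (1.36) and LRRC32 (1.38) followed at a distance. PADI2 had 0.497 FPKM in KO U-87 MG and 5.99 FPKM in wild-type U-87 MG, so its counts were reduced rather than absent. IGFBP6 was matched most closely by B4GAT1, a glycosyltransferase (0.113), CBR3, a carbonyl reductase (0.15), and PTPRN2 (0.162). IGFBP4 was close to CREB3L1 (0.185) and to FBN1, which encodes fibrillin of the matrix (0.204). IGFBP7 was nearest to PALMD (0.25), ADAMTSL1 (0.259) and APCDD1L (0.282), all of which were listed at 0 FPKM in HCT116. IGFBP2 was nearest to PALD1 (0.31), to the keratin gene KRT18 (0.339) and to OR51B5 (0.361). IGFBP3 was nearest to PRICKLE2 (0.405), RGS4 (0.407) and EDA2R (0.543). All of these profiles contain the difference in level between the lines, which share no libraries.

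The other genes of the IGF axis were taken as 7 lists of 132 genes. In HCT116, 95 were tested and 27 were called, 22 higher and 5 lower in KO, which is 28.4% beside 11.9% of all genes. In U-87 MG, 105 were tested and 32 were called, 19 higher and 13 lower, which is 30.5% beside 16.2% of all genes. Without replicate 3 of KO HCT116, 24 were called, and without replicate 3 of wild-type U-87 MG, 33 were.

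**Figure D5:**
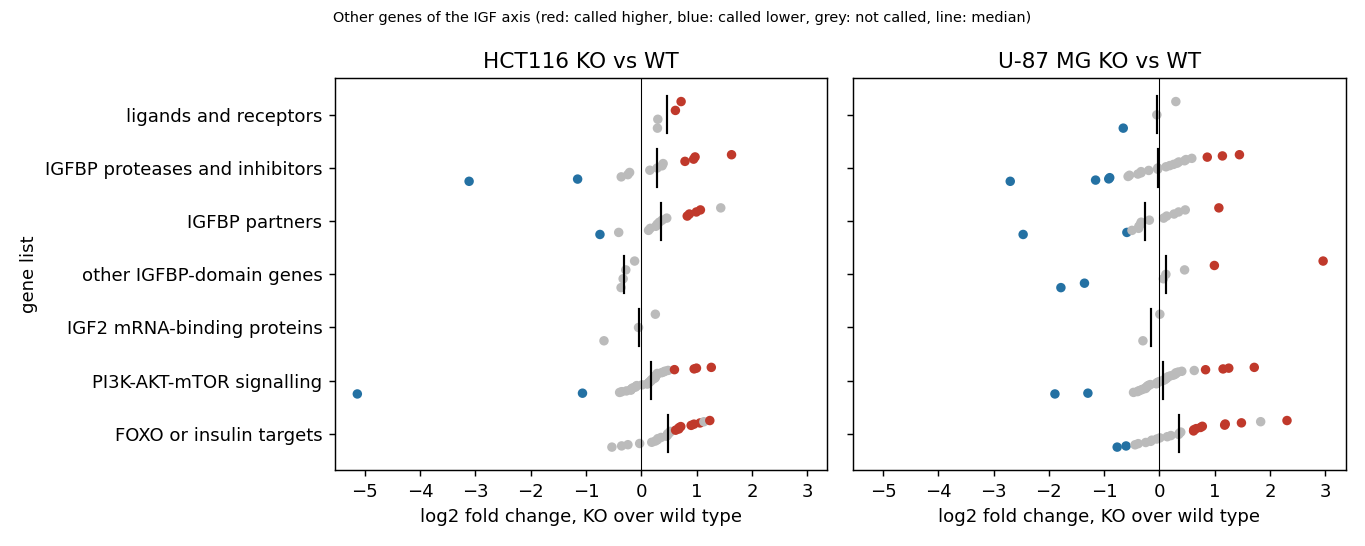
Each point is a tested gene of an IGF-axis list at its log2 fold change of counts, KO over wild type, with HCT116 and U-87 MG in separate panels. Red points were called higher in KO, blue points lower and grey points were not called, and the vertical bar is the list's median, the highest being 0.48 for FOXO and insulin target genes in HCT116.

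Of the ligands and receptors, IGF1R, the receptor that signals for both IGFs, rose in KO HCT116 and fell in KO U-87 MG. It averaged 47.9 ± 2.45 CPM in KO HCT116 and 29.3 ± 0.292 CPM in wild-type HCT116, a log2 fold change of 0.72 (edgeR adjusted p = 6.61e-09). The U-87 MG libraries averaged 12.6 ± 1.17 CPM in KO cells and 19.8 ± 0.419 CPM in wild-type cells (SD, n = 3 each group), a log2 fold change of -0.65 (edgeR adjusted p = 1.21e-06). On log2(FPKM + 1) both changes were under 1.5-fold. IGF2, the ligand preferred by IGFBP6, was called higher in KO HCT116, with 4.03 ± 0.382 CPM in KO and 2.68 ± 0.427 CPM in wild-type cells. Its call was lost without replicate 3 of KO (log2 fold change 0.53) and without replicate 1 (0.56) or 2 (0.54) of wild type, and 20.4% of its exon bases lie in the overlapping INS-IGF2, which leaves its counts uncertain. In U-87 MG, IGF2 had 0 counts in every library, and IGF1 was not tested in either line. IGF2R, which clears IGF2, was not called in either line, with log2 fold changes of 0.29 in HCT116 and 0.30 in U-87 MG. The insulin receptor INSR was at 0.30 in HCT116 and -0.05 in U-87 MG, also not called. INS and INSRR were not tested in either line. The list's median was 0.46 over 4 tested genes in HCT116 and -0.05 over 3 in U-87 MG, beside 0.01 over all genes tested in each line.

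Among 29 proteases that cut IGFBPs and inhibitors of those proteases, 4 were called higher and 2 lower of 13 tested in KO HCT116, with a median of 0.29. In KO U-87 MG, 3 were called higher and 4 lower of 23 tested, with a median of -0.03. Over all genes tested, 11.9% were called in HCT116 and 16.2% in U-87 MG. STC2, a stanniocalcin that inhibits PAPPA, rose in KO HCT116 (19.2 ± 0.308 FPKM in KO, 10.1 ± 0.0720 FPKM in wild type) and fell in KO U-87 MG (6.84 ± 0.292 FPKM in KO, 15.0 ± 0.639 FPKM in wild type, SD, n = 3 each). PAPPA, the protease that cuts IGFBP4 and is named here outside the rule for named genes, was not tested in HCT116. In U-87 MG, PAPPA had 11.4 ± 0.115 FPKM in KO and 9.42 ± 0.393 FPKM in wild-type cells and was not called. MMP14, a membrane metalloprotease, fell by 3.11 on the log2 scale in HCT116 (edgeR adjusted p = 1.92e-13). PLAT, which encodes tissue plasminogen activator, rose by 0.95 in HCT116, and the complement protease C1S rose by 1.63, and by 1.46 without replicate 3 of KO, where its mean FPKM fell under the minimum. In U-87 MG, the lysosomal protease CTSD rose by 1.45, to 1056 ± 29.0 FPKM in KO cells against 383 ± 3.39 FPKM in wild-type cells (SD, n = 3 each). C1R rose by 1.14 there, with 11.6% of its exon bases shared with C1RL. The urokinase gene PLAU fell by 0.92 in U-87 MG, with 31.0% of its exon bases under the antisense gene C10orf55, and ADAM12, which cuts IGFBP3 and IGFBP5, fell by 0.90.

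Among 19 partners of IGFBPs in blood, in the matrix and on the cell surface, 4 were called higher and 1 lower of 14 tested in KO HCT116, with a median of 0.35. In KO U-87 MG, 1 was called higher and 2 lower of 14 tested, with a median of -0.26. The shares called among all genes tested were 11.9% in HCT116 and 16.2% in U-87 MG. In HCT116, CAV1, the main protein of caveolae, rose by 1.00 on the log2 scale. LRP1, an endocytic receptor that also binds IGFBP3, rose by 1.07 (0.58 on log2(FPKM + 1), just under 1.5-fold), and the matrix proteoglycan gene HSPG2 by 0.87, with 11.7% of its exon bases under the antisense LDLRAD2. THBS1, a matrix protein that binds IGFBP5, fell by 2.46 in U-87 MG, to 2.49 ± 0.193 FPKM in KO against 13.6 ± 0.317 FPKM in wild-type cells (SD, n = 3 each). THBS1 was also the gene called lower in HCT116, with 2.48 ± 0.184 FPKM in KO and 4.31 ± 0.141 FPKM in wild-type cells. The integrin gene ITGB3 fell by 0.59 in U-87 MG, near the 1.5-fold threshold, and its log2 fold change was -0.58 without replicate 1 of KO and -0.55 without replicate 2 of wild type, both just under it. NR4A1, a nuclear receptor that IGFBP3 can engage, rose by 1.07 in U-87 MG and was at 0.43 on log2(FPKM + 1), where it was not called.

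Of 12 other genes with an IGFBP-type domain, none of 4 tested was called in HCT116 by edgeR or by DESeq2, and 1 had an unadjusted p under 0.05 by edgeR. In KO U-87 MG, 2 were called higher and 2 lower of 7 tested, with a median of 0.12, beside 16.2% of all genes tested. These genes include the matricellular CCN family, for which the files use older symbols. WISP2 had 1.67 ± 0.214 FPKM in KO and 0.212 ± 0.127 FPKM in wild-type U-87 MG. With 76, 68 and 58 counts in KO and 4, 9 and 13 in wild-type libraries, WISP2 passed the low-count filter only through the KO libraries. Its call is therefore a description. KAZALD1 had 17.6 ± 2.29 FPKM in KO and 9.00 ± 1.23 FPKM in wild-type cells. CYR61 had 4.86 ± 0.362 FPKM in KO and 12.1 ± 1.18 FPKM in wild-type cells, and WISP1 had 1.28 ± 0.107 FPKM in KO and 4.29 ± 0.0893 FPKM in wild-type cells (SD, n = 3 each). The 3 IGF2 mRNA-binding proteins had no calls among 3 tested in HCT116 and 2 tested in U-87 MG, by edgeR or by DESeq2, while 2 in HCT116 and 1 in U-87 MG had an unadjusted p under 0.05 by edgeR.

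Of 37 receptor substrates and genes of PI3K, AKT and mTOR signalling, 4 were called higher and 2 lower in each line, of 36 tested in HCT116 and 35 in U-87 MG. Beside this, 11.9% of all genes tested were called in HCT116 and 16.2% in U-87 MG, so in U-87 MG the list was called about as often as all genes. PIK3R1, the regulatory subunit p85 of PI3K, was called higher in both, with log2 fold changes of 1.00 in HCT116 and 0.83 in U-87 MG. GRB14, named here outside the rule for named genes, was called lower in both, at -1.06 in HCT116 and -1.89 in U-87 MG. INPP5D, a lipid phosphatase that opposes PI3K, rose by 1.27 in HCT116. FOXO4 was called higher in both, by 1.15 in U-87 MG and by 0.60 in HCT116, near the 1.5-fold threshold. In HCT116 it was just under that threshold without replicate 3 of KO (0.58) or replicate 1 of wild type (0.57). In U-87 MG, FOXO1, a transcription factor that drives IGFBP1 in liver, rose by 1.25, with 1.98 ± 0.144 FPKM in KO and 0.836 ± 0.138 FPKM in wild-type cells. The PI3K subunit genes PIK3CD and PIK3R3 changed by -1.29 and 1.71 there.

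Of 30 textbook genes repressed by insulin or induced by FOXO factors, a class to which IGFBP1 belongs, 8 of 23 tested were called higher and none lower in KO HCT116, with a median log2 fold change of 0.48. In KO U-87 MG, 9 of 24 were called higher and 2 lower, with a median of 0.35, while IGFBP1 itself was lower. Among all genes tested, 7.82% were called higher and 4.07% lower in HCT116, and 8.06% higher and 8.15% lower in U-87 MG. CCNG2, a cyclin-like growth inhibitor, rose in both, by 1.24 in HCT116 and 1.19 in U-87 MG. The stress gene BBC3 rose by 1.06 in HCT116 and 1.18 in U-87 MG, and the catalase gene CAT by 0.62 and 0.66. FBXO32, a ubiquitin ligase of muscle atrophy, was at 1.13 in HCT116, where it was not called, and rose by 1.48 in U-87 MG. GADD45A, another stress gene, rose by 0.95 in HCT116 and was at 0.21 in U-87 MG. PCK2, the mitochondrial PEP carboxykinase, rose by 0.90 in HCT116 and was called lower in U-87 MG, at -0.60, near the 1.5-fold threshold. In U-87 MG it was -0.55 without replicate 1 of KO and -0.53 without replicate 2 of wild type, both under that threshold. SESN3, a stress-response sestrin, was at -0.24 in HCT116 and rose by 2.31 in U-87 MG.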

How the data were processed

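The authors aligned the reads with STAR 2.5.2 to GRCh38, counted reads per gene with featureCounts 1.6.1 and computed FPKM with Cufflinks 2.2.1, per the submitters' processing notes. Both the raw counts and the FPKM are used as deposited. HCT116 was read from 1 end and U-87 MG from both, in 50 bp reads of a stranded mRNA kit, per the labels' protocols. The counts held 27788 symbols and the FPKM 24552, of which 24493 were in both.

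The 6 libraries of a line were tested with edgeR 4.0.16 in R 4.3.3 (TMM, filterByExpr, robust quasi-likelihood F-test, Benjamini-Hochberg over all genes tested). The call thresholds are those of the design text, without its restriction to protein-coding genes. Alternatives were RLE factors, no low-count filter, DESeq2 1.42.0, limma 3.58.1 on log2(FPKM + 1) or log2(FPKM + 0.1), a replicate block, all 12 libraries in 1 fit, other thresholds and each library left out. The scripts were tested on simulated counts. Positions came from GENCODE release 44, which placed 88.5% of the symbols.

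The members and lists were chosen with earlier results of these data known. Named genes are all members, the IGF ligands and receptors, up to 4 called genes of each list and line with the smallest adjusted p, and the 3 genes (5 for IGFBP1) most like each member with at least 1 FPKM in a group. Some genes that these rules take are not reported here. Log2 CPM used a prior count of 2. The difference between the lines and the neighbours of IGFBP1 were added after seeing the data.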

Additional observations from a re-analysis of the deposited data

Results flagged for a closer look

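The effect of KO was compared between the lines for the named IGF-axis genes only. This used the interaction of line and genotype in 1 edgeR fit of all 12 libraries and 15613 genes, an alternative added after seeing the data. Most of these genes were named for a small adjusted p in 1 line or both, a choice that favours a difference between the lines. The share of all genes that passed the same thresholds was not computed, so the differences are a description of the named genes. Genes are given here where the difference passed an adjusted p under 0.05 and a fold above 1.5. The values are the log2 effect in HCT116 minus that in U-87 MG. IGF1R differed by 1.38 (SE 0.11, edgeR adjusted p = 1.95e-12), with all 3 KO libraries above the wild-type ones in HCT116 and all 3 below them in U-87 MG. STC2 (2.14), PIK3CD (1.55), PCK2 (1.52), PLAT (1.50) and CAV1 (1.19) also had effects of opposite sign in the lines, positive in HCT116. MMP14 (-3.29), SESN3 (-2.54), CTSD (-1.68) and KAZALD1 (-1.10) had opposite signs too, negative in HCT116. THBS1 (1.73) and CYR61 (1.04) had negative effects in both lines, smaller in HCT116. HSPG2 (0.80), C1S (0.78), GADD45A (0.75) and LRP1 (0.73) had positive effects in both lines, larger in HCT116. PIK3R3 (-1.30), FOXO1 (-0.96) and NR4A1 (-0.80) had positive effects in both, smaller in HCT116. Some of these effects were under 1.5-fold in 1 of the lines, and those of KAZALD1 and PIK3R3 in HCT116 changed sign under some alternatives.

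Among the family, IGFBP3 and IGFBP6 had lower values in all KO libraries of HCT116 and higher values in all KO libraries of U-87 MG than in the wild-type ones. Libraries did not overlap for 61.6% of all genes in HCT116 and 63.8% in U-87 MG, neither gene was called in HCT116, and the U-87 MG values were used to choose the family. Their differences, HCT116 minus U-87 MG, were -2.72 and -1.13 on the log2 scale and were not tested.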

How the results depend on the processing

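The number of family members past the thresholds, which in U-87 MG is a description, was 0 in HCT116 and 2 in U-87 MG under every alternative but these: without the FPKM minimum, 1 was called in HCT116 (IGFBP3) and 3 in U-87 MG (with IGFBP5), and at a fold above 2, 1 was called in U-87 MG (IGFBP1). IGFBP3 in HCT116 passed the low-count filter only through the wild-type libraries. At a fold above 2, all genes called numbered 556 in HCT116 and 882 in U-87 MG, and IGF-axis genes called numbered 9 in HCT116 and 18 in U-87 MG, fewer by construction. With limma on log2(FPKM + 1), 1070 genes and 17 IGF-axis genes were called in HCT116, and the pseudocount narrows the change of low genes. Of the named IGF-axis genes, C1R, C1S, CAT, FOXO4, IGF1R, IGF2 and LRP1 in HCT116 and IGF1R, ITGB3, NR4A1 and PCK2 in U-87 MG lost their call on that scale, all with unchanged direction. Leaving out 1 library gave 1671 to 1753 genes, 0 members and 24 to 27 IGF-axis genes in HCT116, and 2209 to 2282 genes, 2 members and 30 to 34 IGF-axis genes in U-87 MG. Replicate numbers showed no pairing in U-87 MG. Deviations of same-numbered libraries correlated there at 0.025, 0.0013 and -0.0096, and those of differently numbered ones at -0.019 to 0.018. In HCT116, same-numbered libraries correlated at 0.026, 0.017 and 0.14, and differently numbered ones at -0.092 to 0.078. The value of 0.14 was that of replicate 3, so whether replicate numbers pair the HCT116 libraries is not settled. With the replicate number as a block, 1680 genes, 0 members and 27 IGF-axis genes were called in HCT116, and 2221 genes, 2 members and 33 IGF-axis genes in U-87 MG. The log2 fold changes of members kept their sign under every alternative, with ranges of 0.08 to 0.23 for IGFBP2, -3.40 to -0.20 for IGFBP3 and -0.42 to -0.25 for IGFBP6 in HCT116. In U-87 MG they were 0.25 to 0.33 for IGFBP3, -0.41 to -0.28 for IGFBP4, 0.24 to 1.73 for IGFBP5, 0.75 to 0.83 for IGFBP6 and -0.43 to -0.23 for IGFBP7. Of the same genes, 2 that were not called in HCT116 changed sign there: KAZALD1 ranged between -0.27 and 0.035 with 1 library left out (positive without KO replicate 2) and PIK3R3 turned to -0.016 and -0.041 on log2(FPKM + 1) and log2(FPKM + 0.1), and the cause was not tested. Depth limits IGFBP1, IGFBP4, IGFBP5 and IGFBP7 in HCT116 and IGFBP2 in U-87 MG.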
